A study of Mus musculus with 11 samples.

Results

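Hearts of mice that lack a chromosome 5 segment on one of their homologues were compared with hearts of their wild-type littermates, using only the animals that had received vehicle. The comparison sets 3 CD VEH mice (complete deletion, hemizygous for the segment that corresponds to the Williams-Beuren syndrome critical region) against 2 WT VEH mice, 5 of the 11 mice in the series. Both groups were males aged 8 to 16 weeks from a line backcrossed for 9 generations to C57BL/6J, and both had received a daily intraperitoneal injection of the vehicle (DMSO, PEG-400, Tween-80 and saline) for 10 days. The deletion is germline and present in every cell, and the sample source is given as ventricle. The treatment field of the labels reads untreated for these 5 mice, whereas their titles give vehicle. The other 6 mice of the series (3 WT JZL184 and 3 CD JZL184) had received JZL184, an inhibitor of monoacylglycerol lipase, at 8 mg/kg. They are used here to see which differences between genotypes were also present in animals that share no mouse with the vehicle groups. They also enter the fit of all 11 mice, and so the estimate of spread behind each call. The members are the 12229 genes with a mean of at least 1 CPM (the count scaled to a common library size) over the 5 vehicle mice, of 22608 genes in the table. Differences between the groups are log2 fold-changes of CD VEH over WT VEH (log2FC) with their standard error after the ± sign, and adjusted p-values come from the quasi-likelihood test of edgeR fitted over all members and all 11 mice. Of these members, 15 lie in the deleted interval from Gtf2i to Fkbp6 and 12214 lie outside it.

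The genes of the segment include elastin, the main protein of elastic fibres in large arteries, 2 members of the TFII-I family of transcription factors, and the chromatin remodeller Baz1b. In people, loss of a copy of elastin narrows large arteries, and the heart then works against a raised load. Working ventricular muscle responds to load through its sarcomere genes, its calcium cycling and its fuel use, while endothelial cells, pericytes, fibroblasts and macrophages make up most of the other cells of the ventricle.

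Total counts ran from 69660329 and 79464533 in the WT VEH mice (C and D) to between 83789585 and 86650820 in the CD VEH mice (A, C and E), so that 3 counts correspond to 0.0351 to 0.0434 CPM, a floor set by counting error alone. The mitochondrial genome supplied 39.4% and 41.2% of all counts in WT VEH mice and 43.5% to 44.7% in CD VEH mice. Within groups, replicates departed from sampling noise by a chi-square of 21.1 per gene for the pair of WT VEH mice and 35 for CD VEH mice C and E, and 116 and 113 for the pairs with CD VEH mouse A. Markers of ventricular muscle defined the tissue, with Myh6 at 9876 to 15393 CPM, and 0 of the listed lymphocyte, lung and thymus markers reached the mean of 1 CPM. Of 6 atrial markers 3 reached it (summed level 51.6 to 194.5 CPM, nearly all of it Nppa), while Myl7, Sln and Bmp10 lay under 1 CPM in each vehicle mouse. Of 14 skeletal muscle markers 4 reached it (summed level 1379 to 1650 CPM, nearly all of it Ckm, which the heart also expresses), while the myosin genes Myh1, Myh2 and Myh4 lay under 1 CPM in each vehicle mouse. Nothing beyond the letter of a column shows how the mice of a group were related, so p-values measure the spread between these animals. With 2 against 3 mice, a two-sided exact permutation test of a single value cannot give a p below 0.1, and calls therefore rest on the model fitted across all genes.

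The deleted interval comes first, since its genes should be reduced wherever the label says CD. All 15 members of the interval were lower in CD VEH hearts, and their CPM values did not overlap between the groups. Over the 12229 members, 28.7% were called in either direction, 14.8% were called lower and 13.9% were called higher, and 63.3% had CPM values without overlap between 2 and 3 mice. The median log2 fold-change of the 15 genes was -1.01, which is 49.8% of the WT VEH level, close to the loss of a copy out of a pair. The genes did not all lie at that level, and ran from 36.6% of WT VEH for Baz1b to 66.5% for Clip2, which encodes a microtubule-binding linker protein.

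Baz1b (ENSMUSG00000002748.7, chromosome 5 of GRCm38, 135187264 to 135246129) stood at 73.1 and 68.3 CPM in WT VEH mice and at 26.1, 25.7 and 25.9 CPM in CD VEH mice (log2FC -1.45 ± 0.08, adjusted p = 1.66e-06). Mlxipl, the glucose-responsive transcription factor ChREBP, had 20.9 and 21.4 CPM against 8.11, 8.20 and 8.18 CPM (log2FC -1.37 ± 0.09, adjusted p = 1.25e-05). Gtf2i, which encodes TFII-I, had 129 and 123 CPM against 53.7, 57.1 and 51.0 CPM (log2FC -1.23 ± 0.07, adjusted p = 1.66e-06). In each of these genes the 3 CD VEH mice lay within a narrow band below 50% of both WT VEH mice.

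Eln was the least uniform gene of the interval. It had 34.8 and 36.5 CPM in WT VEH mice and 15.7, 21.6 and 26.4 CPM in CD VEH mice A, C and E (log2FC -0.75 ± 0.20, adjusted p = 0.0197). The CD VEH mice were spread over a wider range than for any neighbour, and the call of Eln was lost without CD VEH mouse A (adjusted p = 0.0564) or without either WT VEH mouse (adjusted p = 0.0922 and 0.101). Clip2, at the other end of the range of the members, had 8.98 and 9.71 CPM against 6.02, 6.53 and 6.10 CPM (log2FC -0.59 ± 0.10, adjusted p = 0.00396). The remaining members, Gtf2ird1, Rfc2, Eif4h, Limk1, Abhd11, Stx1a, Bud23, Dnajc30, Tbl2 and Bcl7b, had log2 fold-changes from -1.19 (Tbl2) to -0.73 (Bcl7b).

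**Figure D1:**
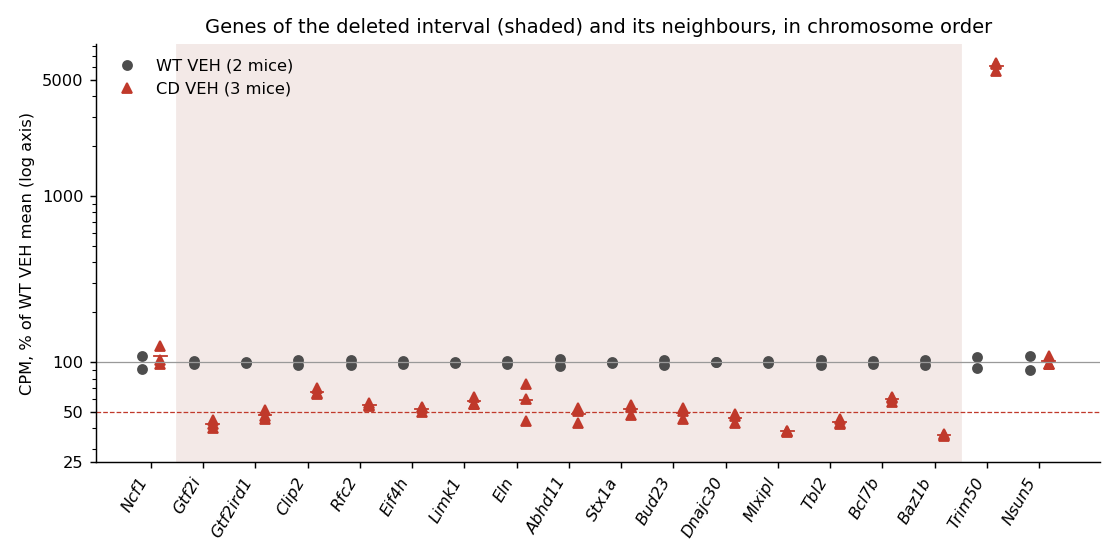
CPM of each vehicle mouse as a percentage of the WT VEH mean (log axis) for the 15 members of the deleted interval, shaded, with the nearest member on its proximal side (Ncf1) and the nearest 2 on its distal side (Trim50, Nsun5); circles are WT VEH mice, triangles are CD VEH mice, the short lines are CD VEH means and the dashed line marks 50%. The 15 members lie between 36.6% and 66.5% in the fit, Ncf1 and Nsun5 stay near 100%, and Trim50 lies far above.

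A further 10 genes that lie in the interval did not reach a mean of 1 CPM. Fzd9, a Wnt receptor, had 60 and 68 counts in WT VEH mice and 18, 25 and 16 counts in CD VEH mice, so its few reads were lower in each CD VEH mouse. Lat2 had 68 and 62 counts in WT VEH against 42, 62 and 43 counts in CD VEH mice. Mettl27 overlapped between the groups, with 48 and 62 counts against 66, 41 and 43. Vps37d had 12 and 11 counts against 18, 14 and 17. Syna, Tmem270, Cldn13, Cldn4 and Cldn3 had at most 6 counts in any of these mice. Fkbp6, the last gene of the interval and known for its role in male meiosis, was higher in CD VEH mice. It had 4 and 1 counts in WT VEH mice and 69, 64 and 83 counts in CD VEH mice, which is 0.0579 and 0.0124 CPM against 0.829, 0.784 and 0.972 CPM. At 5 counts in all, the WT VEH level of Fkbp6 is too near the floor for a fold change, but each CD VEH mouse held more reads of it than both WT VEH mice together.

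The gene that follows Fkbp6 on the chromosome had the largest difference of any called member outside the interval. Trim50 (ENSMUSG00000053388.10, chromosome 5 of GRCm38, 135353295 to 135368005), a tripartite motif E3 ubiquitin ligase, lies 3251 bases beyond the annotated start of Fkbp6, which is read from the minus strand. It had 0.116 and 0.0995 CPM in WT VEH mice and 6.76, 6.17 and 6.88 CPM in CD VEH mice, a mean of 6.61 ± 0.381 (SD, n = 3) CPM. Trim50 was thus near absent in both WT VEH hearts and clearly present in each CD VEH heart (log2FC 5.93 ± 0.27, adjusted p = 7.5e-07). With any 1 of the 5 mice left out, its log2 fold-change stayed between 5.82 and 6.03, with an adjusted p of at most 0.000105. In the mice given JZL184, Trim50 had 0.013, 0 and 0.0574 CPM in WT animals and 5.66, 5.78 and 6.12 CPM in CD animals.

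The members nearest to the interval were then followed outwards on each side. On the distal side, Nsun5, an rRNA methyltransferase gene, had 5.92 and 7.18 CPM in WT VEH and 6.36, 6.42 and 7.13 CPM in CD VEH mice (log2FC 0.02 ± 0.10, adjusted p = 0.908), and Pom121, a nuclear pore gene, was lower by a small margin (log2FC -0.29 ± 0.09, adjusted p = 0.0347), a call lost without any 1 mouse other than CD VEH mouse C. With an offset for gene length the log2FC of Pom121 was -0.17 (adjusted p = 0.12). Its call was also lost with upper-quartile factors, with a filter at 10 CPM and with no filter. Further out, the chemokine gene Ccl24, 219893 bases from the interval, was higher (log2FC 0.76 ± 0.26, adjusted p = 0.0492), as was Tmem120a at 385441 bases (log2FC 0.29 ± 0.08, adjusted p = 0.0235). On the proximal side, the nearest 4 members Ncf1, Gtf2ird2, Rcc1l and Castor2 were not called (adjusted p = 0.716, 0.143, 0.0774 and 0.439). The next members on that side, Auts2 at 1694490 bases and Galnt17 at 2929340 bases, were lower (log2FC -0.61 ± 0.16 and -0.70 ± 0.15, adjusted p = 0.0171 and 0.00837). Of the 23 members within 1 Mb of the interval, Trim50 included, 34.8% were called, and of the 416 members of chromosome 5 more than 20 Mb away 32.9% were called, against 28.7% of all members. The sequence that carries the start of Fkbp6 lies at the distal end of the interval, facing away from Trim50, which is read from the opposite strand. The window of 300 bases around that start (RefSeq, GRCm38.p6, minus strand, chr5:135349995-135350294) is printed to show the place between both genes, with the 50 bases from the annotated start in capitals.
Fkbp6: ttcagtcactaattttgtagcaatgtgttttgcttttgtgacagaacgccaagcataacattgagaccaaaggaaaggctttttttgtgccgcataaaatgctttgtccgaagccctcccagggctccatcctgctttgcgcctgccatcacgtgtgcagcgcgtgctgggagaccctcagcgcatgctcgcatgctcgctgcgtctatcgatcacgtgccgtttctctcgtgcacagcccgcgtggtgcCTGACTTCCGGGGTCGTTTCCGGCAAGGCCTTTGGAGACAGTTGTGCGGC

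Outside the interval, 3491 of 12214 members were DEGs (adjusted p under 0.05), 1700 of them higher and 1791 lower in CD VEH hearts. An unadjusted p under 0.05 was reached by 5195 members. Most differences were small. The median was 0.43 (log2) for higher and -0.37 for lower DEGs, and 70.3% of the DEGs differed by less than 0.5 on the log2 scale. Only 59 DEGs differed by more than 1 on that scale, 31 of them higher and 28 lower. The share of DEGs rose with the level of the genes, from 19.9% of members with a mean of 1 to under 10 CPM to 42.7% of members at 100 CPM or more. Of 146 members with a mean under 1 CPM in WT VEH but not in CD VEH mice, 38 were called higher, and of 64 members in the opposite position, 16 were called lower.

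The number of DEGs depended on single mice. It was 295 without WT VEH mouse C, 1183 without WT VEH mouse D, 1928 without CD VEH mouse A, 1972 without CD VEH mouse E and 3583 without CD VEH mouse C. Where a WT VEH mouse was left out, the remaining one was assumed to vary like the mice of the other groups. Of the genes called without WT VEH mouse C, 293 were also DEGs with all mice, and all 293 had the same direction. Of the 165 named genes called with all mice, 112 were not called without WT VEH mouse C, 59 without WT VEH mouse D, 29 each without CD VEH mice A and E, and 6 without CD VEH mouse C, and none of these changed direction.

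The 15 genes with the largest decreases at 10 CPM or more included the sarcomere genes Acta1, Myh7b, Ttn and Myh7. Acta1, which encodes skeletal alpha-actin and is expressed at a low level next to cardiac actin in adult ventricle, had 226 and 204 CPM in WT VEH mice and 22.3, 60 and 54.1 CPM in CD VEH mice A, C and E. It was the lowest of these genes (log2FC -2.24 ± 0.37, adjusted p = 0.0033), and CD VEH mouse A was lower than the other CD VEH mice. Myh7b, a slow-type myosin heavy chain gene, had 75.4 and 71.0 CPM against 32.1, 36.5 and 32.3 CPM (log2FC -1.12 ± 0.16, adjusted p = 0.0025). Ttn, the molecular spring titin, had 3959.5 and 2854 CPM against 1445, 1982 and 1442 CPM (log2FC -1.07 ± 0.30, adjusted p = 0.0212). Myh7, the beta-myosin heavy chain of the slow ventricle, had 261 and 160.2 CPM against 104, 120.4 and 78.0 CPM (log2FC -1.06 ± 0.19, adjusted p = 0.00448). The WT VEH mice were far apart for Ttn and Myh7, and without WT VEH mouse C the log2 fold-change of Myh7 was -0.67 (adjusted p = 0.0648). Ttn lost its call without WT VEH mouse C (adjusted p = 0.175) and without CD VEH mouse A or E (adjusted p = 0.0702 and 0.0682).

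The same set of large decreases held regulators of metabolism and signalling. Lars2, the mitochondrial leucyl-tRNA synthetase, had 1600.2 and 621 CPM in WT VEH and 366, 337 and 392.3 CPM in CD VEH mice (log2FC -1.61 ± 0.30, adjusted p = 0.00516). WT VEH mouse C decided the size of that difference, because without it the log2 fold-change was -0.77 (adjusted p = 0.0709). Fnip2, a folliculin partner that binds AMPK, had 32.8 and 26.5 CPM against 14.0, 12.6 and 11.9 CPM (log2FC -1.21 ± 0.27, adjusted p = 0.00892). Rcan1 (an inhibitor of calcineurin), Nfil3 (a transcription factor with a circadian rhythm), Wnk2 (a kinase), Ppp1r9a (neurabin), Nav2, Tacc2, Cnksr3 and Ypel2 were also in it, with log2 fold-changes from -1.13 (Nfil3) to -0.84 (Wnk2).

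The 15 genes with the largest increases at 10 CPM or more were of several kinds. Meox2, a homeobox gene of cardiac endothelium, had 8.27 and 8.84 CPM in WT VEH and 18.8, 15.4 and 19.0 CPM in CD VEH mice (log2FC 1.05 ± 0.10, adjusted p = 0.000219). Pf4, a chemokine of platelets and resident macrophages, had 6.49 and 6.60 CPM against 15.9, 11 and 14.4 CPM (log2FC 1.07 ± 0.23, adjusted p = 0.00773). B2m, the light chain of MHC class I, had 119 and 121 CPM against 216, 203 and 242 CPM (log2FC 0.87 ± 0.15, adjusted p = 0.00394). For these 3 genes both WT VEH mice lay close together. Each CD VEH mouse lay above both, which the rule for the 15 genes required. Cldn5, the tight junction claudin of endothelium, Bcl6b, Tmem88, Id3, Hic1 and the monocarboxylate carrier Slc16a7 were also among the 15 highest, with log2 fold-changes from 0.88 (Id3) to 0.98 (Hic1).

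In 2 of the 15 highest genes a single CD VEH mouse set the value. Hmox1, the inducible haem oxygenase, had 4.63 and 5.41 CPM in WT VEH and 9.04, 8.36 and 32.3 CPM in CD VEH mice A, C and E (log2FC 1.72 ± 0.55, adjusted p = 0.0351), and without mouse E the log2FC of Hmox1 was 0.79 (adjusted p = 0.0989). Ube2l6, the conjugating enzyme for ISG15 and also abundant in red cell precursors, had 10.9 CPM in both WT VEH mice and 51.1, 14.3 and 15 CPM in CD VEH mice A, C and E (log2FC 1.30 ± 0.45, adjusted p = 0.0475). Without mouse A the log2FC of Ube2l6 was 0.42 (adjusted p = 0.046), and both genes also lost their call without either WT VEH mouse. With only the 5 vehicle mice in the model neither was called (adjusted p = 0.0542 for Hmox1 and 0.0923 for Ube2l6), and Ube2l6 was not called with an offset for gene length (adjusted p = 0.0666). Mouse A was also the mouse with the most haemoglobin RNA, with Hba-a1 at 2585 CPM against 306 to 439.5 CPM in the other 4 mice, and the part of that in the value of Ube2l6 was not tested.

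**Figure D2:**
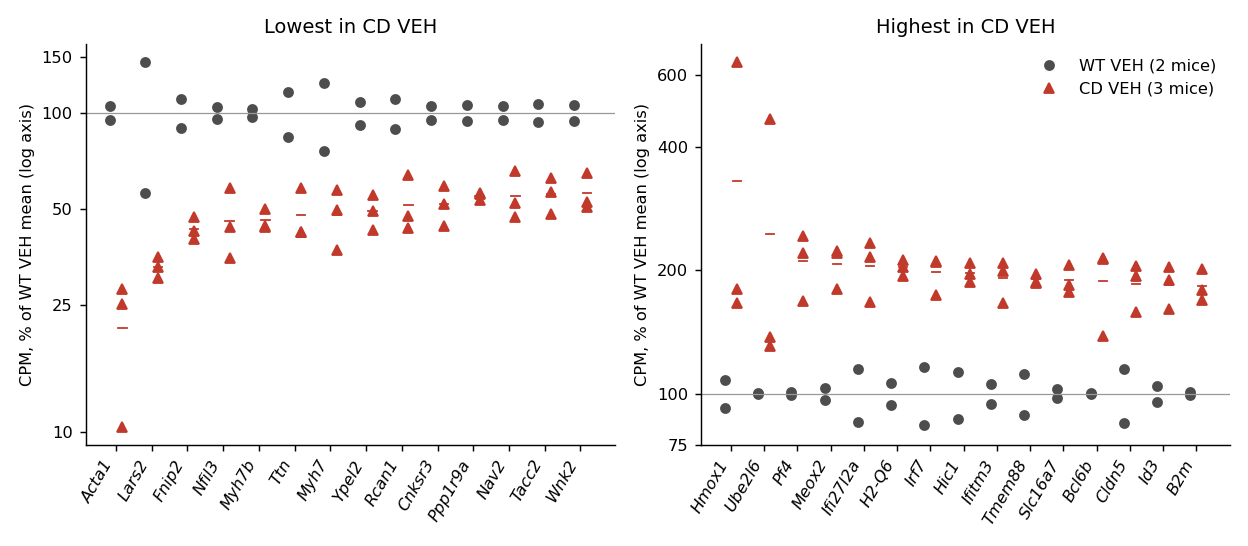
CPM of each vehicle mouse as a percentage of the WT VEH mean (log axis) for 14 of the 15 lowest (left) and the 15 highest (right) DEGs with a mean of at least 10 CPM and no overlap between groups; circles are WT VEH mice, triangles CD VEH mice and short lines CD VEH means. Acta1 falls furthest, the WT VEH mice are widely apart for Lars2 and Myh7, and a single CD VEH mouse lies far above the other CD VEH mice for Hmox1 and Ube2l6.

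Lists of genes by function and by cell type were then read as counts of called members and as medians, against 14.8% of all members called lower, 13.9% called higher and a median log2 fold-change of 0.01 over the members outside the interval. In bulk ventricle, fewer cells of a type and less RNA per cell cannot be told apart, and this holds for each list below. The lists describe groups of genes, and their members are not replicates of the genotype. Genes outside the rule for named genes are given as the called or not called members of their list.

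Among the genes of the contractile apparatus, most called members fell, and many members were not called. Of 11 thick filament and M-band genes, 6 fell and 0 rose (median log2 fold-change -0.54), among them Ttn, Myh7, Obsl1, Myom1 and Myom2. Obsl1, a cytoskeletal adaptor, had 68.2 and 72.5 CPM in WT VEH and 40.1, 47.3 and 45.6 CPM in CD VEH mice (log2FC -0.67 ± 0.09, adjusted p = 0.00172). Myh6, the main adult myosin, had 14937 and 15393 CPM against 9876, 12903 and 10569 CPM and missed the threshold (log2FC -0.45 ± 0.16, adjusted p = 0.0519). The ventricular light chain Myl2 had a log2 fold-change of 0.24 (adjusted p = 0.117). Without WT VEH mouse C, 1 of the 11 was called, while the median was -0.55.

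Of 11 thin filament genes, 5 fell and 0 rose (median log2 fold-change -0.32). Besides Acta1 these were Neb, Lmod2, Tmod1 and Actc1, which build or cap actin filaments. Lmod2, the leiomodin that lengthens thin filaments, had 534 and 505 CPM in WT VEH and 321, 341 and 298 CPM in CD VEH mice (log2FC -0.70 ± 0.14, adjusted p = 0.00706). Actc1, cardiac actin itself, was only slightly lower, at 6438 and 7299.6 CPM against 5052, 5484 and 5973 CPM (log2FC -0.32 ± 0.11, adjusted p = 0.046), and its call was lost without any 1 mouse other than CD VEH mouse E. The troponin genes Tnnt2, Tnnc1 and Tnni3 and the tropomyosin gene Tpm1 were not called. With WT VEH mouse C left out 1 of the 11 was called, and without WT VEH mouse D 3 were called.

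Of 19 Z-disc and intermediate filament genes, 8 fell and 1 rose (median -0.29). Flnc, filamin C, had 218 and 254 CPM in WT VEH and 129.9, 168 and 154 CPM in CD VEH mice (log2FC -0.65 ± 0.15, adjusted p = 0.0116), and Actn2, the alpha-actinin of the Z-disc, had 1083 and 1123 CPM against 747, 868 and 775 CPM (log2FC -0.47 ± 0.11, adjusted p = 0.0112). Xirp1, Synpo2l, Synpo2, Ldb3, Pdlim5 and Des also fell, and Myoz2 rose. In the dystrophin complex and costamere, which tie the sarcomere to the membrane, 7 of 18 fell and 1 rose (median -0.13), with Dmd at 125 and 106 CPM against 67.7, 77.7 and 67.4 CPM (log2FC -0.71 ± 0.17, adjusted p = 0.0117). The summed level of the 10 ventricular cardiomyocyte markers was 52977 and 53364 CPM in WT VEH and 44211 to 47849 CPM in CD VEH mice. In the absence of WT VEH mouse C, 0 of the Z-disc and 0 of the costamere genes were called, and without mouse D 0 and 4 were called lower.

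Among genes of excitation and calcium handling, most called members also fell. Of 14 sodium channel, pacemaker and junction genes 6 fell and 1 rose (median -0.35), with the pacemaker channel gene Hcn2 and the desmosomal genes Dsp, Dsg2 and Pkp2 among those falling and the connexin gene Gjc1 rising. The gap junction gene Gja1 had 376 and 331 CPM in WT VEH against 314, 263 and 248 CPM in CD VEH mice and was not called (adjusted p = 0.0874). Of 15 repolarising potassium channel genes 6 fell and 0 rose (median -0.25), led by Kcnd3, a subunit of the transient outward channel, at 17.5 and 16 CPM against 11.3, 11.6 and 10.5 CPM (log2FC -0.58 ± 0.08, adjusted p = 0.00194).

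Of 17 calcium handling genes 7 fell and 2 rose (median -0.28). The L-type channel subunits fell together. Cacna1c, its pore, had 218 and 184 CPM in WT VEH and 132, 150.3 and 106 CPM in CD VEH mice (log2FC -0.63 ± 0.15, adjusted p = 0.0125), and Cacnb2 and Cacna2d1 had log2 fold-changes of -0.65 and -0.49. Atp2a2, the SERCA pump, had 9839.7 and 10397 CPM against 7259, 8626 and 7520.4 CPM (log2FC -0.38 ± 0.12, adjusted p = 0.0316), a call lost with an offset for gene length (adjusted p = 0.0731) and without any 1 mouse other than CD VEH mouse C. Ryr2, the release channel, missed the threshold at 1365 and 1282 CPM against 909, 1157 and 847 CPM (log2FC -0.45 ± 0.18, adjusted p = 0.0764). The small calcium-binding genes S100a1 and Sri rose. Without WT VEH mouse C, 1 gene was called lower in each of these 3 lists, and without WT VEH mouse D, 2 of the sodium, 1 of the potassium and 3 of the calcium genes were.

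Adrenergic, muscarinic and cAMP signalling moved in both directions, with 9 of 31 genes higher and 11 lower (median 0.07). Of the 6 adenylyl cyclase genes of the list, Adcy1, Adcy5, Adcy6 and Adcy9 fell, and Adcy4 and Adcy7 were not called. Adcy5, a main cyclase of heart muscle, had 59.1 and 62.4 CPM in WT VEH and 39.9, 44.3 and 39.1 CPM in CD VEH mice (log2FC -0.56 ± 0.07, adjusted p = 0.00172), and Adcy1 had 6.65 and 5.81 CPM against 2.43, 2.52 and 2.34 CPM (log2FC -1.36 ± 0.22, adjusted p = 0.0033). On the higher side, Grk5, the kinase that desensitises beta-adrenergic receptors, had 19.3 and 22.9 CPM against 37.1, 36.9 and 37.3 CPM (log2FC 0.81 ± 0.11, adjusted p = 0.00219). The beta-1 receptor gene Adrb1 itself had 8.56 and 10.1 CPM against 9.31, 9.22 and 11.1 CPM and was not called (adjusted p = 0.685). Without WT VEH mouse C 2 of the 31 were called higher and 2 lower, without mouse D 5 and 5, and without CD VEH mouse A or E 5 and 8. Of 7 genes of the natriuretic peptide system, whose ligands are markers of wall stress, 0 were called by edgeR with all 11 mice and no offset. An unadjusted p under 0.05 was reached by 2. The number called lower was 1 with DESeq2, with only the 5 vehicle mice, with an offset for GC content and without CD VEH mouse E. Nppa had 191 and 169.6 CPM against 49.0, 91.7 and 146 CPM (log2FC -0.92 ± 0.37, adjusted p = 0.0832), and Nppb had 229 and 185 CPM against 153, 65.3 and 161 CPM (adjusted p = 0.188).

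In fuel sensing and metabolism, the called genes lay on the lower side. Of 27 genes of mTORC1, folliculin and AMPK, 12 fell and 0 rose (median -0.21). Prkaa2 and Prkab2 encode the muscle-type catalytic and beta subunits of AMPK. Prkaa2 had 144 and 129 CPM in WT VEH and 85, 97.4 and 82.3 CPM in CD VEH mice (log2FC -0.63 ± 0.11, adjusted p = 0.00363), and Prkab2 had 66.9 and 65.3 CPM against 38.4, 44.8 and 35 CPM (log2FC -0.75 ± 0.09, adjusted p = 0.00172). The alternative subunits Prkaa1 and Prkab1 were not called. Of 13 PPAR and ERR regulators 5 fell and 0 rose (median -0.24), with Ppara at 38.0 and 31.1 CPM against 23.4, 24.8 and 21.7 CPM (log2FC -0.57 ± 0.12, adjusted p = 0.00682), while the coactivator Ppargc1a was not called (log2FC -0.55 ± 0.23, adjusted p = 0.0901).

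In the pathways that these regulators act on, part of the genes were called. Of 24 fatty acid uptake and oxidation genes 5 fell and 0 rose (median -0.15), a share of 20.8% beside 14.8% of all members, among them Lpl, the lipoprotein lipase, with 3909 and 4258 CPM against 2729.6, 3160.5 and 2868 CPM (log2FC -0.48 ± 0.10, adjusted p = 0.00728). Of 19 glucose use genes 6 fell and 0 rose (median -0.15), among them Pfkm and Pfkfb2. Pdk4, which shuts glucose out of oxidation, differed between the WT VEH mice more than between groups, at 405 and 1077 CPM against 621, 861 and 711 CPM (adjusted p = 0.98). Without WT VEH mouse C, 2 of the AMPK and mTOR genes, 1 of the PPAR and ERR, 1 of the fatty acid and 0 of the glucose genes were called, and without WT VEH mouse D 5, 3, 0 and 1 were.

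Muscle regulators of transcription and splicing followed the contractile genes. Of 13 cardiac transcription factor genes 5 fell and 0 rose (median -0.20). Myocd, the coactivator myocardin, had 45.4 and 42.0 CPM in WT VEH and 24.7, 26.5 and 26.8 CPM in CD VEH mice (log2FC -0.75 ± 0.11, adjusted p = 0.00237), and Gata4 had 68.5 and 69.1 CPM against 53.8, 57.3 and 53.8 CPM (log2FC -0.32 ± 0.08, adjusted p = 0.0117). Of 14 muscle splicing regulators 9 fell and 2 rose (median -0.27). Rbm20, which sets the isoforms of titin, had 194 and 189 CPM against 133, 129 and 118 CPM (log2FC -0.60 ± 0.14, adjusted p = 0.0118), and Ptbp1, which is known to oppose muscle splicing, rose (log2FC 0.41 ± 0.10, adjusted p = 0.011). Without WT VEH mice C and D in turn, 1 and 3 of the transcription factors and 0 and 3 of the splicing regulators were called lower.

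Myocardin acts on the CArG box, a sequence bound by serum response factor, and Acta1 is a textbook target, so its promoter is shown with the match in capitals (RefSeq, GRCm38.p6, minus strand, chr8:123894726-123895025). The CArG box was searched on the window of 250 bases before to 50 after each annotated start, and being a palindrome it covers both strands.
Acta1: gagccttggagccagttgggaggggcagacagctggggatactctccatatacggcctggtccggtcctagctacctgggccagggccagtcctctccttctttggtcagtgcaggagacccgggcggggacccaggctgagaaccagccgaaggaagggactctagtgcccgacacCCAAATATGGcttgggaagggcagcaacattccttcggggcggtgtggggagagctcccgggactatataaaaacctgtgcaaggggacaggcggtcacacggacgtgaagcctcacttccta
A match was present in 1.63% of all 32851 windows. It was present in 2.22% of lower DEGs with a window, in 2.16% of higher DEGs and in 1.34% of members not called. Among muscle genes with a window it was held by 3 of 9 thin filament genes (Acta1, Actc1 and Nebl), 2 of 9 thick filament genes (Myl3 and Myom1), 2 of 14 Z-disc genes (Ldb3 and Fhl2) and 1 of 10 smooth muscle genes (Myl9). Of these 8 genes Acta1, Actc1, Myom1 and Ldb3 fell, Myl9 rose, and Nebl, Myl3 and Fhl2 were not called. In CD JZL184 against WT JZL184 mice the log2 fold-change was 0.75 for Myocd and -1.81 for Acta1. A part of Myocd in the level of Acta1 was not tested.

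Ribosomal protein genes were higher nearly throughout. Of 78 cytoplasmic ribosomal protein genes, 73 rose and 0 fell (median log2 fold-change 0.45). Rps26 had 59.4 and 58.4 CPM in WT VEH and 85.8, 75.4 and 86.3 CPM in CD VEH mice (log2FC 0.49 ± 0.08, adjusted p = 0.00367). Rpl3l, the muscle-specific paralogue of Rpl3, was among the 5 that were not called. Reads of these genes can be shared with processed pseudogenes, so that single values are uncertain. When WT VEH mouse C was left out 1 of the 78 was called, and without WT VEH mouse D 25 were, with medians of 0.47 and 0.44. With an offset for gene length 60 were called (median 0.33).

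Energy production differed between its parts. Of 81 nuclear-encoded respiratory chain genes 31 rose and 0 fell (median 0.19), among them Cox7a2, which had 224 and 216 CPM against 316, 274 and 314 CPM (log2FC 0.45 ± 0.08, adjusted p = 0.00404). Cox4i2, the lung and vascular isoform of subunit 4, had the largest difference of the list, at 4.01 and 4.28 CPM against 7.39, 7.25 and 7.26 CPM (log2FC 0.82 ± 0.15, adjusted p = 0.00504). The large core subunits Ndufs1 and Sdha had negative values and were not called. With an offset for gene length 13 rose and 3 fell (median 0.05), and without WT VEH mice C and D in turn 1 and 8 did. Of the 13 protein genes of the mitochondrial genome 2 rose (mt-Atp6 and mt-Co3), a share near the 13.9% of all members, and 0 were called with a length offset or without any 1 mouse other than CD VEH mouse C. Of 78 mitochondrial ribosomal protein genes 11 rose and 2 fell, and of 17 mitochondrial tRNA synthetase genes 6 fell and 0 rose, Lars2 among them. Of 37 proteasome subunit genes 7 rose and 1 fell, and of 64 translation factor genes, Eif4h of the interval included, 6 rose and 7 fell. With the length offset 5 of the mitochondrial ribosomal genes rose and 4 fell, 2 of the proteasome genes rose and 3 fell, 3 of the translation factors rose and 9 fell, and 4 of the synthetase genes fell. Without WT VEH mouse C, 0 of the synthetase genes were called lower, and without WT VEH mouse D or CD VEH mouse A or E 2 were. In the same mitochondrial ribosomal, proteasome and translation factor lists 0, 0 and 0 rose without WT VEH mouse C and 4, 2 and 1 without WT VEH mouse D, while 2 and 4 of the translation factors fell.

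**Figure D3:**
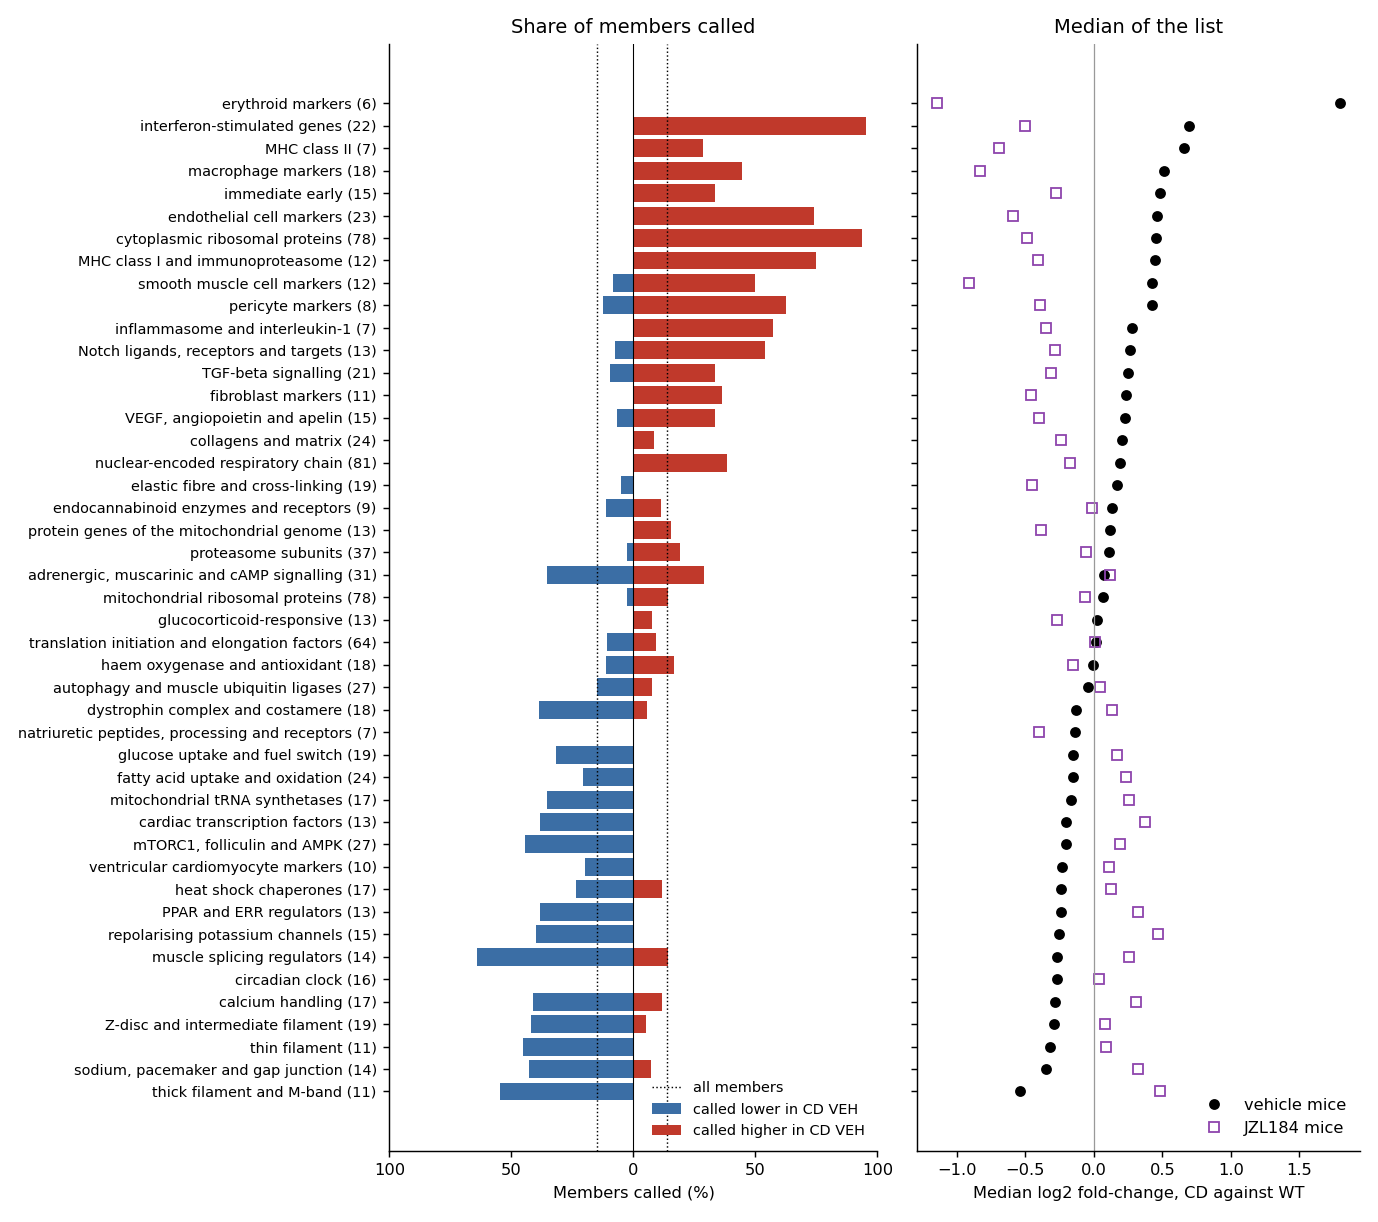
Left, share of the members of each list that were called lower (blue, to the left) or higher (red, to the right) in CD VEH hearts, with the number of members in parentheses and dotted lines at 14.8% lower and 13.9% higher over all members; right, median log2 fold-change of CD against WT in vehicle mice (filled circles) and in JZL184 mice (open squares), for lists with at least 5 members. Interferon-stimulated and ribosomal protein genes have the highest shares called higher, muscle lists lie at the bottom, and most medians change sign between the treatments.

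Endothelial markers were mostly higher. Of 23 endothelial cell markers 17 rose and 0 fell (median 0.46). Pecam1 (CD31) had 116 and 112 CPM in WT VEH and 162, 146 and 161 CPM in CD VEH mice (log2FC 0.46 ± 0.08, adjusted p = 0.004), Cdh5 (VE-cadherin) had 118 and 122 CPM against 167, 164 and 166 CPM (log2FC 0.46 ± 0.09, adjusted p = 0.00483), and Ly6c1 had 80.4 and 79.0 CPM against 128, 117 and 132 CPM (log2FC 0.66 ± 0.08, adjusted p = 0.00172). The CD VEH mice lay above both WT VEH mice in all 3, and 99.9% of all DEGs had CPM values without overlap. The receptors Kdr and Flt1 were not called. The summed level of the markers was 1525 and 1529.7 CPM in WT VEH and 2029.6 to 2276 CPM in CD VEH mice. Leaving out WT VEH mouse C, 6 of the 23 were called.

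Mural cells showed the same direction with exceptions. Of 8 pericyte markers 5 rose and 1 fell (median 0.42), with Rgs5 at 457 and 446 CPM against 757, 642 and 639.6 CPM (log2FC 0.59 ± 0.09, adjusted p = 0.00293) and Kcnj8, a subunit of the vascular KATP channel, at 28.5 and 27.7 CPM against 49.7, 41.4 and 42.1 CPM (log2FC 0.66 ± 0.10, adjusted p = 0.00314). Of 12 smooth muscle markers 6 rose and 1 fell (median 0.43), with Myl9 at 10.9 and 9.53 CPM against 20.6, 17.8 and 16.1 CPM (log2FC 0.83 ± 0.15, adjusted p = 0.00448). Acta2 overlapped between the groups, at 50.2 and 67.8 CPM against 48.7, 44.7 and 65.9 CPM (adjusted p = 0.568), and Smtn fell. The number of pericyte markers called higher was 3 without WT VEH mouse C. The number of smooth muscle markers was 1 without either WT VEH mouse and 2 without CD VEH mouse A or C, and the summed level of that list, 286.9 and 290.1 CPM against 294.7 to 303 CPM, barely differed.

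Signals that act on these cells were followed by role. Vegfa, the ligand made by muscle cells, was lower, at 260.0 and 275 CPM in WT VEH and 161, 158 and 170.1 CPM in CD VEH mice (log2FC -0.71 ± 0.13, adjusted p = 0.0047), whereas the angiopoietin receptors Tek and Tie1 were higher (log2 fold-change 0.39 and 0.46, adjusted p = 0.00648 and 0.00581). In that list of 15 VEGF, angiopoietin and apelin genes 5 rose and 1 fell (median 0.23). With an offset for gene length 9 rose and 1 fell (median 0.37). Of 13 Notch genes 7 rose and 1 fell (median 0.26), with the arterial ligand Dll4 at 14.7 and 15.9 CPM against 24.7, 20.1 and 24.6 CPM (log2FC 0.59 ± 0.09, adjusted p = 0.00325) and the target Hey1 at 6.20 and 7.50 CPM against 11.5, 9.86 and 10.9 CPM (log2FC 0.65 ± 0.10, adjusted p = 0.00325). Of 21 TGF-beta and BMP genes 7 rose and 2 fell (median 0.25). Tgfb1 and the targets Id1, Id3 and Smad7 were on the higher side and the receptor gene Bmpr2 and Smad3 on the lower side, Id3 with 25.7 and 28.0 CPM against 54.7, 43.2 and 50.8 CPM (log2FC 0.88 ± 0.12, adjusted p = 0.00179). Without WT VEH mouse C, 0 of the Notch, 0 of the VEGF and 1 of the TGF-beta genes were called higher, without mouse D 3, 1 and 3, and without CD VEH mouse A 3, 3 and 6.

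Of the 19 elastic fibre genes, Eln fell and the other 18 were not called by edgeR with all 11 mice in the model (median of the list 0.17), although 6 of the 18 had an unadjusted p under 0.05 and DESeq2 called 3 higher and 2 lower. With only the 5 vehicle mice in the model edgeR called 5 of the 19 higher and 2 lower, and with an offset for GC content 4 lower. The 18 include Fbn1, which had 63.5 and 55.7 CPM against 66.2, 60.9 and 74.2 CPM (log2FC 0.17 ± 0.13, adjusted p = 0.347). Of 24 collagen and matrix genes 2 rose and 0 fell (median 0.21). Without either WT VEH mouse, or without CD VEH mouse E, 0 of these rose. Col1a1 and Col3a1, the fibrillar collagens, were not called (adjusted p = 0.974 and 0.197), while Sparc, a collagen-binding matrix protein, had 206 and 231 CPM against 315, 319 and 436 CPM (log2FC 0.71 ± 0.18, adjusted p = 0.0153). Of 11 fibroblast markers 4 rose and 0 fell (median 0.24), with Dcn at 393 and 366 CPM against 541, 469 and 521 CPM (log2FC 0.43 ± 0.09, adjusted p = 0.0089), and their summed level was 1592 and 1605 CPM in WT VEH against 1689 to 1913 CPM in CD VEH mice. The fibroblast count was 1 without either WT VEH mouse and 2 without CD VEH mouse A or E.

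Interferon-stimulated genes had the highest share of called members of any list with at least 5 members. Of 22 genes 21 rose and 0 fell (median 0.70). Isg15, a ubiquitin-like modifier, had 2.84 and 3.76 CPM in WT VEH and 9.62, 5.55 and 7.73 CPM in CD VEH mice (log2FC 1.21 ± 0.25, adjusted p = 0.00724). Ifitm3, a restriction factor of membranes, had 28.5 and 31.9 CPM against 60, 50.2 and 62.8 CPM (log2FC 0.93 ± 0.16, adjusted p = 0.00409). The regulators Irf1, Irf7 and Irf9 rose with them, with Irf1 at 14.9 and 15.7 CPM against 25.3, 24.2 and 26.5 CPM (log2FC 0.73 ± 0.11, adjusted p = 0.00307). Each CD VEH mouse lay above both WT VEH mice for these genes, beside 99.9% of all DEGs with CPM values without overlap. Mouse C was the lowest of the 3 CD VEH mice for Isg15, Ifitm3, Irf1, Irf7 and Irf9. Only 1 of the 22 was called without WT VEH mouse C (median 0.59), and without any other mouse between 15 and 20 were.

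Many of these genes carry the interferon-stimulated response element (ISRE) in their promoters. Isg15, Ifitm3 and the class I light chain gene B2m are shown because their windows hold its core, searched as GAAA, any 2 bases and GAAA on either strand, in capitals (RefSeq, GRCm38.p6; Isg15 minus strand, chr4:156200769-156201068; Ifitm3 minus strand, chr7:141010695-141010994; B2m plus strand, chr2:122147437-122147736). In Isg15 3 overlapping matches run together, in Ifitm3 2 matches follow the annotated start, and in B2m 1 match lies 139 bases before it.
Isg15: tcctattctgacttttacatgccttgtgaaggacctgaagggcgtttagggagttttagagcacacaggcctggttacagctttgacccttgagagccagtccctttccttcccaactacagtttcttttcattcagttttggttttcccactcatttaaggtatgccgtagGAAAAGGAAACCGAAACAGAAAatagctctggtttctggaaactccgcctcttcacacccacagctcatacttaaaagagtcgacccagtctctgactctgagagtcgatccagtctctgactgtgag
Ifitm3: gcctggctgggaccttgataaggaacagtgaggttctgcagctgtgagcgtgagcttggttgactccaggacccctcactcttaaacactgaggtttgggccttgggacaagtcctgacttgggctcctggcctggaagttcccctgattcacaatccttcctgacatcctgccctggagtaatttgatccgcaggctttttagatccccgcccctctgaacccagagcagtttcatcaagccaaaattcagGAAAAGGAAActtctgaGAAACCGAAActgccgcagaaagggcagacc
B2m: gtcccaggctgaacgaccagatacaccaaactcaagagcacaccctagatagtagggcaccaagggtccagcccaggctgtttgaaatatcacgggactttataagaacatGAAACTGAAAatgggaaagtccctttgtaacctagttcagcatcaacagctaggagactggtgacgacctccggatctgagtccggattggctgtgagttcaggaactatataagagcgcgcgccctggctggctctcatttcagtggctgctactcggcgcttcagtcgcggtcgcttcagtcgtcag
The core was present in 3.44% of all 32851 windows, and in 11 of the 17 interferon-stimulated genes with a window. Of the higher DEGs with a window 6.63% held it, against 2.72% of the lower DEGs and 3.45% of the members not called. These are counts of letters in a window and not of bound sites.

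Antigen presentation followed the interferon-stimulated genes. Of 12 MHC class I and immunoproteasome genes 9 rose and 0 fell (median 0.45). H2-K1, a classical class I heavy chain, had 81.2 and 82.6 CPM in WT VEH and 136, 129.7 and 149 CPM in CD VEH mice (log2FC 0.75 ± 0.15, adjusted p = 0.0061), and Psmb10, an immunoproteasome subunit, had 24.8 and 25.7 CPM against 33.1, 32.7 and 32.6 CPM (log2FC 0.38 ± 0.06, adjusted p = 0.0033). The class I genes share sequence, so that reads may be split between H2-K1, H2-D1 and H2-Q6. Of 7 MHC class II genes 2 rose (H2-Aa and H2-Eb1, median of the list 0.66), and their levels were highest in CD VEH mouse E, with H2-Aa at 40.6 and 44.2 CPM against 61.1, 64.9 and 93.8 CPM (log2FC 0.79 ± 0.21, adjusted p = 0.0181), a call lost without CD VEH mouse E (adjusted p = 0.0593) and without either WT VEH mouse (adjusted p = 0.126 and 0.079). No class I gene was called without WT VEH mouse C, and 5 were without WT VEH mouse D or CD VEH mouse A or E.

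Of 18 macrophage markers 8 rose and 0 fell (median 0.51), while 12 rose with DESeq2 and 15 with only the 5 vehicle mice in the model. Their summed level was 397 and 410.3 CPM in WT VEH against 509.7 to 652 CPM in CD VEH mice. C1qc, a complement component of resident macrophages, had 27.8 and 31.3 CPM against 50.3, 43.8 and 58.8 CPM (log2FC 0.79 ± 0.20, adjusted p = 0.0143), whereas the receptor Csf1r missed the threshold (log2FC 0.42 ± 0.15, adjusted p = 0.0512). Of 7 inflammasome and interleukin-1 genes 4 rose and 0 fell, with Il1b at 1.42 and 1.17 CPM against 3.75, 2.42 and 4.63 CPM (log2FC 1.48 ± 0.34, adjusted p = 0.0107), but 0 of them were called without either WT VEH mouse and 1 without CD VEH mouse A or E. The macrophage count depended on each mouse, being 0 without either WT VEH mouse, 5 without CD VEH mouse A, 2 without mouse E and 11 without mouse C. Of the genes that process endocannabinoids, Mgll, the target of JZL184, had 101 and 123 CPM against 148, 165 and 143 CPM in these vehicle mice (log2FC 0.44 ± 0.14, adjusted p = 0.0346), Napepld fell, and the other 7 members were not called. Without any 1 of the 5 mice 0 members of that list were called higher, and without either WT VEH mouse 0 were called lower.

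Transcripts of red cells, of the circadian clock and of acute stress varied widely between the mice of a group. Of the 6 erythroid members 0 were called by edgeR or DESeq2 with all mice and 4 had an unadjusted p under 0.05, although 4 were called higher without CD VEH mouse C and all 6 without mouse E. Their summed level was 18772 CPM in CD VEH mouse A against 2026 to 2880 CPM in the other 4 mice. The median log2 fold-change of 1.80 was 0.09 without that mouse. Of 16 clock genes 0 were called by edgeR with all 11 mice in the model and no offset, 3 were called lower by DESeq2, and 4 had an unadjusted p under 0.05. With only the 5 vehicle mice in the model edgeR called 2 higher and 4 lower, and without CD VEH mouse C 2 lower. It called 1 lower without CD VEH mouse E, and 1 lower with an offset for gene length. Dbp, an output gene of the clock, had 6.62 and 6.25 CPM in WT VEH and 26.9, 23.2 and 8.01 CPM in CD VEH mice A, C and E (adjusted p = 0.108), and Arntl had 22.3 and 22.8 CPM against 13.4, 13.3 and 20.9 CPM (adjusted p = 0.232), so that CD VEH mouse E resembled the WT VEH mice in both. The inducible chaperone Hspa1a overlapped between groups, at 9.09 and 15.6 CPM against 37.1, 65.2 and 7.66 CPM (adjusted p = 0.147). Of 17 heat shock chaperone genes 2 rose and 4 fell. None of the 17 was called without either WT VEH mouse, 0 rose and 2 fell without CD VEH mouse A, and 3 rose and 2 fell without mouse E. Of 15 immediate early genes 5 rose and 0 fell (33.3% higher, median 0.49), of which 0 were called without WT VEH mouse C and 2 without WT VEH mouse D or CD VEH mouse A, with Fos at 6.86 and 3.25 CPM against 14.3, 6.18 and 9.23 CPM and not called (adjusted p = 0.17).

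The direction of the calls went with transcript length. With the members split into 5 equal classes of length, of the class with the shortest transcripts (204 to 1099 bases, median over the transcripts of a gene), 25.3% were called higher and 6.51% lower, and of the class with the longest transcripts (3903 bases or more), 6.31% were called higher and 28.4% lower. The median log2 fold-change went from 0.12 in the shortest to -0.13 in the longest class. Of the ribosomal protein genes 69 of 78, and of the nuclear-encoded respiratory chain genes 67 of 81, lay in the shortest class, and Dmd (4438 bases) and Ryr2 (4924 bases) in the longest. A median over the annotated transcripts need not be that of the main one, since it put Ttn, at 2130 bases, in the middle class and Myh7, at 414 bases, in the shortest. With an offset for length in the model, the median was 0.00 in the shortest and -0.02 in the longest class. This offset was fitted to the length trend of each mouse in these same counts, so flat class medians follow from its construction. With it 3016 DEGs were called, 2492 of them among the 3491. The medians of the interferon, endothelial and thick filament lists were then 0.66, 0.47 and -0.48. GC content showed a smaller trend, with 10.3% of the members called higher in the class of lowest GC and 18.5% in that of highest GC. Across the autosomes and the X chromosome, the share of members called outside the interval ran from 24.3% (chromosome 13) to 31.7% (chromosome 3).

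**Figure D4:**
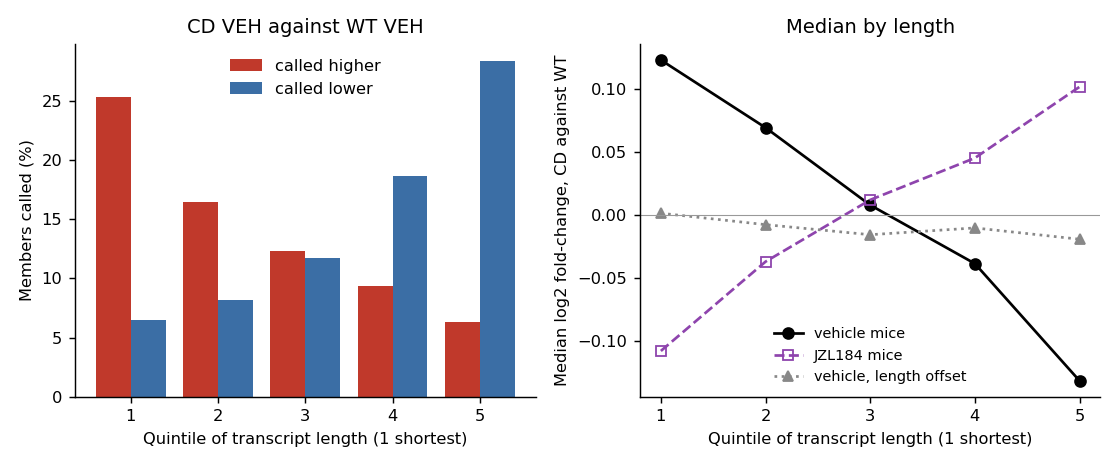
Left, share of members outside the interval called higher (red) or lower (blue) in CD VEH hearts in 5 equal classes of transcript length; right, median log2 fold-change of CD against WT for the same classes, for vehicle mice, for JZL184 mice and for vehicle mice with a length offset in the model. Classes of short transcripts are called higher more often and classes of long transcripts lower in vehicle mice, and the JZL184 mice show the opposite slope. The offset was fitted to the trend with length in these data, so the flat line in vehicle mice follows from its construction.

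The mice given JZL184 allow the genotype difference to be read a second time in 6 other animals. In CD JZL184 against WT JZL184, 36.6% of the members were called, 17.7% higher and 18.9% lower, and the interaction of genotype with JZL184 passed the threshold for 50.4%. In the interval, the members were lower in both treatments, with log2 fold-changes from -1.50 (Eln) to -0.26 (Gtf2ird1) under JZL184, all 15 called. Outside it, the directions were mostly opposite. Of the 1700 members higher in CD VEH, 1091 were called lower and 31 higher in CD JZL184 against WT JZL184, and of the 1791 lower members 1025 were called higher and 28 lower. The interaction passed the threshold for 93.1% of the former and 92.5% of the latter. Of the 78 ribosomal protein genes, for example, 77 were lower and 1 was higher in CD JZL184 hearts.

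Members called in the same direction in both treatments numbered 59 of the 3491, against 2116 called in opposite directions. They include Trim50 and Acta1, Grk5 and Slc16a7, and several genes named after their values were seen. Acta1 had 178, 194 and 159 CPM in WT JZL184 and 31.3, 74.4 and 45.7 CPM in CD JZL184 mice (log2 fold-change -1.81, adjusted p = 0.00245), below each WT mouse of either treatment. Grk5 had 20.2, 24.4 and 25.2 CPM in WT JZL184 and 33.9, 42.1 and 37.2 CPM in CD JZL184 mice (log2 fold-change 0.70, adjusted p = 0.000983). For both genes the 6 CD mice did not overlap with the 5 WT mice, and the interaction was not called (adjusted p = 0.482 and 0.542). For Trim50 the log2 fold-change was 7.76 under JZL184 and the interaction passed the threshold (adjusted p = 0.026).

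Further genes called in the same direction in both treatments are given as examples. Rtn4r, the Nogo receptor, had 5.34 and 6.55 CPM in WT VEH and 1.2, 2.22 and 1.42 CPM in CD VEH mice (log2 fold-change -1.89, adjusted p = 0.00172), whereas the difference was -0.68 under JZL184 (adjusted p = 0.0263) and the interaction passed the threshold (adjusted p = 0.00906). Tmod4, a tropomodulin of skeletal muscle, had 14.4 and 14.9 CPM against 9.70, 9.17 and 8.11 CPM (log2 fold-change -0.70, adjusted p = 0.0033), and 17.7, 18.4 and 15.3 CPM against 9.44, 9.03 and 7.36 CPM under JZL184. Slc16a7, a pyruvate and lactate carrier, had 6.85 and 7.18 CPM against 14.4, 12.9 and 12.4 CPM, and 5.49, 4.81 and 6.39 CPM against 13.7, 11.3 and 15.9 CPM under JZL184. The interaction was not called for Tmod4 and Slc16a7 (adjusted p = 0.136 and 0.121). Fam81a and the cadherin gene Cdh4 were lower, and the cadherin gene Cdh22 was higher, in CD mice of both treatments. The pair Gstp2 and the unnamed identifier ENSMUSG00000097808.3 were listed with equal values, so that their reads cannot be told apart.

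**Figure D5:**
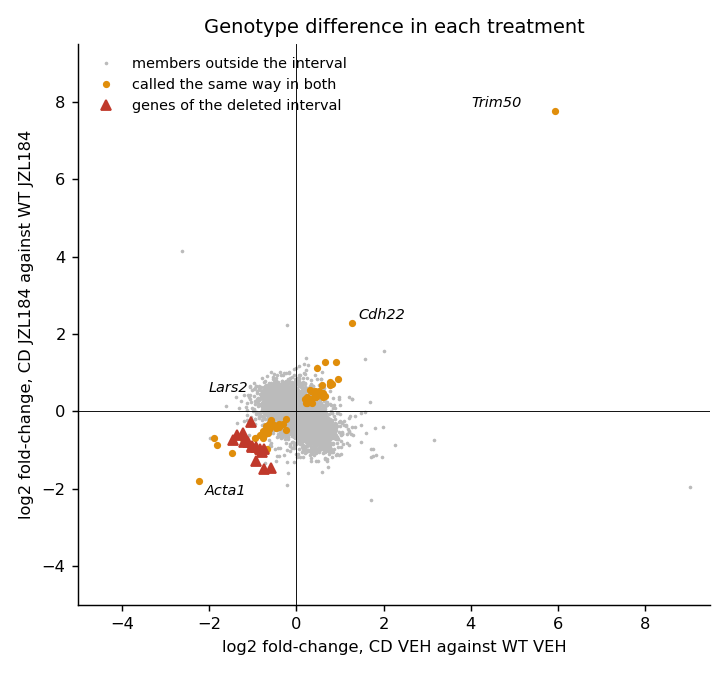
Log2 fold-change of CD against WT in vehicle mice (horizontal axis) and in JZL184 mice (vertical axis) for the members outside the interval (grey), the 59 members called in the same direction in both comparisons (orange) and the 15 members of the deleted interval (red triangles). Most grey points run from upper left to lower right, whereas the interval and the 59 genes, with Trim50 at 5.93 in vehicle mice, lie on the other diagonal.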

How the data were processed

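Ventricular RNA of 11 mice was sequenced by the study, of which the 3 CD VEH and 2 WT VEH mice are compared here. The deposited table holds estimated counts per gene that the authors made with Salmon 0.7.2 against Ensembl release 85 (GRCm38) and summed to genes with tximport 1.2.0. They were rounded to whole numbers. CPM values use the effective library sizes of the fit. The filter kept genes whose mean over the 5 vehicle mice reached 1 CPM, and edgeR 4.0.16 (R 4.3.3, limma 3.58.1) was fitted to all 11 mice with TMM factors, a mean per group and the quasi-likelihood test. DEGs had a Benjamini-Hochberg adjusted p under 0.05. DESeq2 1.42.0, other scalings and filters, offsets for length or GC content, and the removal of each mouse were alternatives.

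The script was tested on simulated data of 12229 genes. Of 100 genes changed by log2 0.5 edgeR recovered 63%, and of 100 changed by 1 it recovered 92%, with 4.32% false calls. DESeq2 recovered 72% and 94% of the same genes with 12.6% false calls. Far fewer genes were changed in the simulation than the 28.7% of members called in the vehicle mice. The shares of false calls are therefore those of the simulation and need not hold for the calls in the mice. Names and positions came from GENCODE mouse release 21 (22238 of 22608 genes matched, 16070 with the same version), and promoter windows from RefSeq (9556 of 12214 members outside the interval). Named genes were all genes of the interval, the 15 highest and 15 lowest DEGs at 10 CPM or more without overlap, the preset anchors and up to 3 called genes with the lowest adjusted p of each list, and the nearest 3 members beside the interval. Rtn4r, Tmod4, Fam81a, Cdh4, Cdh22, Gstp2 and, further from the interval, Castor2, Ccl24, Tmem120a, Auts2 and Galnt17 were chosen after their values were seen. The members and lists were chosen with earlier results of these data known. Columns carry a letter for each mouse, which is used as its name. A few genes that met the rule are not reported here.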

Additional observations from a re-analysis of the deposited data

Results flagged for a closer look

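The genotype difference was not the same in vehicle and in JZL184 mice. Outside the interval 6151 members passed the interaction test of edgeR, and 109 of the named genes were called in opposite directions in the vehicle and the JZL184 comparison and passed it as well. Within the interval, each of the 15 members was lower in CD mice of both treatments. Their log2 fold-change under JZL184 minus that under vehicle was 0.70 for Baz1b, 0.76 for Mlxipl, 0.66 for Gtf2i, 0.79 for Gtf2ird1, 0.40 for Tbl2 and 0.31 for Dnajc30, which were therefore closer to the WT level under JZL184. It was -0.86 for Clip2, -0.75 for Eln and -0.24 for Bcl7b, which were further below it. Outside the interval the same difference was -1.41 for Ly6c1, -1.64 for Meox2, -1.34 for Vtn and -1.47 for Egfl7, of which Meox2, Ly6c1 and Egfl7 are expressed in endothelium, and 1.17 for the potassium channel gene Kcnd3 and 1.52 for Ppp1r9a. These 6 genes were called in both comparisons with opposite signs. The median log2 fold-change by transcript length also changed its slope between the treatments, from 0.12 to -0.13 over the 5 classes in vehicle mice and from -0.11 to 0.10 in JZL184 mice, and the part of that in these differences was not tested.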

How the results depend on the processing

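Of the 15 members of the interval, 14 were called without CD VEH mouse A or either WT VEH mouse, 8 of the 8 that have a mean of at least 10 CPM were called under that filter, and 8 were called with a log2 fold-change of at least 1 required. The number of DEGs outside the interval, 3491 with all mice, was 295 to 3583 when 1 mouse was left out (120 to 1726 higher, 175 to 1857 lower), 1111 at an adjusted p under 0.01 (522 higher, 589 lower) and 59 with a log2 fold-change of at least 1 (31 higher, 28 lower). Lists with at least 50% of their members called in a direction numbered 11 with all mice, 20 with only the 5 vehicle mice in the model, 0 to 13 when 1 mouse was left out, 4 at an adjusted p under 0.01 and 0 with a log2 fold-change of at least 1. The 11 are of 51 lists with members, and include the adipocyte list with 1 member and the smooth muscle list at 50%. With only the 5 vehicle mice in the model 4048 genes were called (1959 higher, 2089 lower), 3299 of them among the 3491. DESeq2 called 3991 genes, an offset for GC content 3843, and a length offset 3016. Upper-quartile factors moved the median of all members to 0.04 from 0.01, and 57.2% of 3522 DEGs were then higher, against 48.7%. In every setting, the DEGs shared with the fit of all mice had the same direction. The settings refit the same counts, so this is no independent support. For the named genes called with all mice, 2295 values over the settings were still called and 323 were not. For the others, 546 were still not called, 45 were called and 23 changed sign. The cause of these changes was not tested. No paired analysis was possible because the columns carry a letter and not the replicate numbers of the labels.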

Other observations

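Neutrophil transcripts, which belong in no comparison above, were low and varied by mouse. S100a9, a calcium-binding protein of neutrophils, had 1.46 and 0.423 CPM in WT VEH mice and 5.51, 0.931 and 3.21 CPM in CD VEH mice A, C and E, so that CD VEH mouse C lay between the WT VEH mice, and 0 of the 3 members of that list were called by edgeR or DESeq2 or had an unadjusted p under 0.05.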
